A study of Mus musculus with 7 samples.

Results

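Ribosomal protein genes encode the proteins of the small (40S, Rps names) and large (60S, Rpl names) ribosomal subunits. Their rows were taken from the single-cell table by name: Rpl or Rps with a number and an optional letter or l, together with Rpsa, Rplp0, Rplp1 and Rplp2. Rps6k kinases and rows named as pseudogenes (-ps) were left out. The rule found 86 of 30879 genes: 32 of the small subunit, 41 of the large subunit, the 3 stalk proteins, and 10 paralogues, meaning names with l or l1 after the number. GENCODE types 82 of them as protein coding and 4 as processed pseudogenes despite their names, namely Rpl6l, Rps12l1, Rps3a2 and Rps4l. The cells came from adult wild-type C57BL/6 mice, and DAPI-negative (live) single cells had been sorted. Primary thyroid tissue gave 2 samples. Thyroid follicular cell organoids (TFCOs), which are cultures grown in basement membrane extract from dissociated thyroid, gave 3 late passage and 2 early passage samples. The labels name no treatment and no altered gene in any group, and give no exact age. The series text speaks of 2 biological replicates for each kind of sample, while the labels give 3 late passage samples. No label ties a sample to an animal, so p-values measure the spread between these samples and not between animals. The comparisons of tissue classes and of cycling cells were fitted with a term for the sample. Their p-values measure how far differences within samples vary, which for the classes rests on 2 tissue samples.

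Ribosomal proteins are made in near-equal numbers and assembled onto ribosomal RNA in the nucleolus. Their mRNAs are among the most abundant of a cell, and most begin with a 5′ terminal oligopyrimidine (TOP) run, through which mTOR signaling and the RNA-binding protein Larp1 control their translation. The quantity of a ribosomal protein mRNA therefore does not give the rate at which the protein is made. Thyroid follicular cells (TFCs) synthesize and secrete the large glycoprotein thyroglobulin (Tg), from which thyroid hormone is released.

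Promoters were searched for the letters of a pair of motifs, with no test. RefSeq promoters (GRCm38.p6, 250 bases before to 50 bases after a start) matched 62 members, with 74 promoters. The letters CTTTCC, read on the gene's own strand, stood in 39.2% of these member promoters, against 14.1% of all 32851 promoters of that length. From 10 bases before to 15 bases after the start, CTTTCC stood in 13.5% of member promoters and 1.04% of all. CCGGAAG, the core letters bound by ETS factors, searched on both strands, stood in 36.5% of member promoters and 8.86% of all. The motifs can overlap where CTTTCC runs into CCGGAAG. The 4 windows printed here run from 50 bases before to 20 bases after the start of genes on which later results turn, and capitals mark CTTTCC. Rpl4 lies on the plus strand at chr9:64173337-64173406 and was the most abundant member in TFCs. Rps9, plus strand at chr7:3703991-3704060, had the largest immune-like difference. Rps27, minus strand at chr3:90213629-90213698, shows the motif at the start site and is the member with the paralogue Rps27l. Rpl22l1, plus strand at chr3:28805458-28805527, is the paralogue that did not pass the test in immune-like cells. A match is a description and not a shown binding site.
Rpl4: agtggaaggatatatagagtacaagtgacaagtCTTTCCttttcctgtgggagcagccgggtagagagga
Rps9: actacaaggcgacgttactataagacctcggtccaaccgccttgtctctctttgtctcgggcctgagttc
Rps27: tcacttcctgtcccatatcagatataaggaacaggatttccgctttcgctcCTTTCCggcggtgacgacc
Rpl22l1: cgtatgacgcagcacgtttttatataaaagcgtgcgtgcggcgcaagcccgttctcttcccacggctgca

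SORT-seq sorts single live cells into the wells of 384-well plates and counts each captured mRNA 3′ end once by its unique molecular identifier (UMI). A level here is UMIs per 10000 UMIs of a cell, averaged over cells, and does not depend on transcript length. Of 2590 cells, 2035 had at least 1000 UMIs and were used, between 235 and 360 per sample, with 1360770 to 4690869 UMIs per sample. The plates share 384 well barcodes, and 305 of them were used in all 7 libraries. Tissue cells were clustered without the ribosomal protein genes, although the classes were still drawn from the same cells. The 2 tissue samples gave 57 and 61 TFC-like, 137 and 134 endothelial-like, 54 and 45 mural-like, and 33 and 24 immune-like cells, and 16 and 7 stromal-like cells that were too few for a fit.

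The labels were checked against marker genes. The leading genes of the TFC-like cluster held Tg beside Chga, Calca and Pth, which are genes of C cells and the parathyroid, and 6 of its cells with more signal of those types were set aside. In TFCOs, Pax8 was detected in 65.5% to 90.3% of cells and Nkx2-1 in 58.5% to 85.3%. In tissue TFC-like cells Pax8 was found in 19.3% and 32.8% of cells and Nkx2-1 in 14% and 23.0%, at median depths of 2053 and 1847 UMIs against 5011 to 12381 in TFCOs. Tg had a UMI in every kept TFCO cell and in every TFC-like, endothelial-like, mural-like and immune-like tissue cell, so its presence does not mark a TFC. The summed level of 10 immune markers was 10.2 and 4.89 in tissue TFC-like cells, 0.144 to 0.645 in TFCOs, and 220 and 246 in immune-like cells. The 6 C cell markers summed to 6.70 and 6.35 in tissue TFC-like cells and to 0.611 to 1.23 in TFCOs. The part of these cells in the comparison of TFCOs with tissue was not tested.

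The first question was how much of the mRNA of each cell type came from ribosomal protein genes. The mean share of UMIs was 0.821% and 0.882% in mural-like cells of the 2 tissue samples, 1.08% and 1.18% in endothelial-like cells, 1.85% and 1.99% in TFC-like cells, and 3.54% and 4.77% in immune-like cells. Stromal-like cells had 1.68% and 2.35%. The order mural-like, endothelial-like, TFC-like, immune-like was the same in both samples, and no pair of these classes overlapped. Among clusters led by own markers, given below, the order of mural-like and endothelial-like cells differed between the samples. Tissue TFC-like cells carried 14.1% and 9.65% of their UMIs in Tg and 10.9% and 9.35% in mitochondrial genes. Relative to the mean of the other classes, TFC-like cells were 0.127 points lower, and 0.361 points higher once Tg, mitochondrial, haemoglobin and ribosomal RNA rows were left out of the total. With 2 samples these shares have no test.

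**Figure D1:**
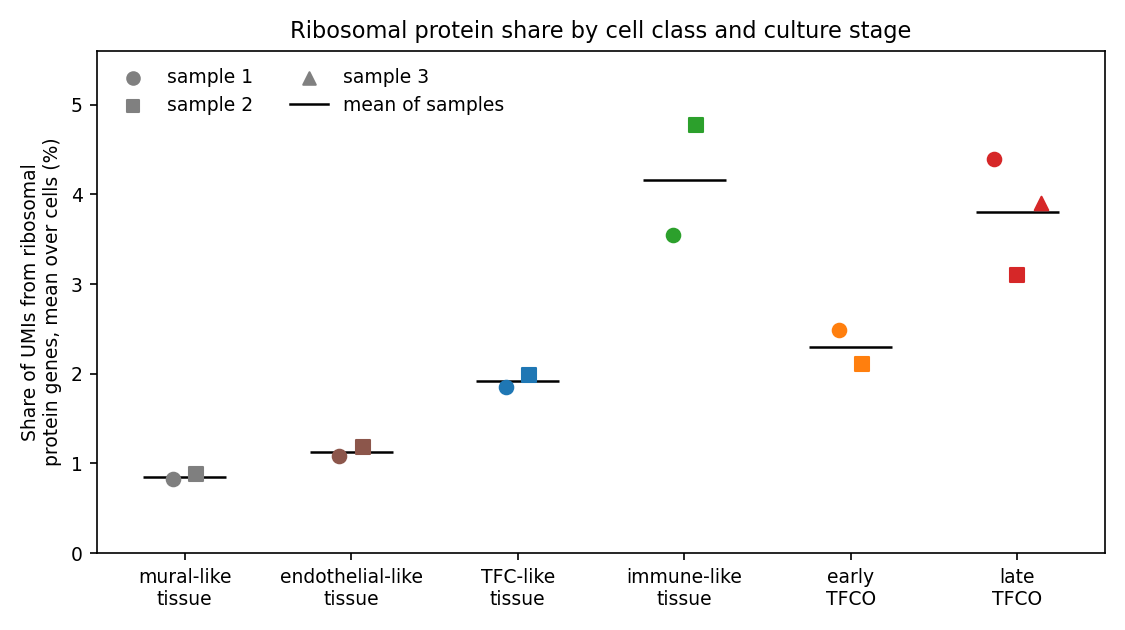
Share of a cell's UMIs from the 86 ribosomal protein genes, averaged over cells (vertical axis, percent), for 4 tissue classes and 2 TFCO stages. Each point is a sample and each line the mean of the samples; mural-like cells sit at 0.821% and 0.882%, and all 3 late TFCO samples, at 3.10% to 4.4%, lie above both early ones.

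Immune-like cells had higher levels of nearly every ribosomal protein gene. Of 74 members tested, 73 rose against the mean of the other 3 classes and none fell, where 19.6% of all tested genes rose (limma, adjusted p under 0.05). The median member difference was 1.27 on the log2 scale, and the median of all genes was -0.058. Without adjustment 73 members had p under 0.05, against 49.3% of all genes. All 30 tested members of the small subunit, all 40 of the large subunit and all 3 of the stalk passed.

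Rps9, a 40S protein, had the largest difference. Its level was 8.50 and 11.0 in immune-like cells, 3.03 and 2.55 in TFC-like, 1.34 and 1.63 in endothelial-like, and 0.742 and 1.85 in mural-like cells. Immune-like cells lay above every other class in both samples, with a log2 difference of 1.95 (SE 0.184, limma adjusted p = 2.32e-06). Rpl32, a 60S protein, followed at 1.86, with levels of 6.22 and 10.4 in immune-like cells and 0.407 to 2.95 elsewhere. Rpl17, which lines the peptide exit tunnel of the 60S subunit, rose by 1.72, and Rps29 and Rps24, 40S proteins mutated in Diamond-Blackfan anaemia, rose by 1.72 and 1.70. The exception was Rpl22l1, the paralogue of Rpl22, at 0.441 and 1.30 in immune-like cells and 0.175 to 1.07 elsewhere, with a difference of 0.37 (SE 0.190, adjusted p = 0.135). Its sign differed between the samples, at -0.10 and 0.85. Rpl22, the 60S protein needed for T cell development, rose by 1.09, from 0.410 to 2.27 elsewhere to 3.32 and 4.15 in immune-like cells.

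Levels were also scaled to the summed family level, which includes the gene itself, instead of to all UMIs. On this scale 4 members were still higher in immune-like cells, among them Rpl32, Rps9 and Rps18, at 0.45 to 0.59. Of 3 that were lower, Rpl41 was at -0.54 and Rpl7 at -0.45. The small subunit made up 44.7% and 44.2% of the summed family level in immune-like cells and 41.5% to 42.7% in the other tested classes, so the ratio of large to small subunit was lowest there, at 1.09 and 1.12. Among partners with other names, Rack1, a 40S scaffold, and Fau, which encodes a 40S protein fused to a ubiquitin-like domain, rose by 1.39 and 1.52. The elongation factor Eef1a1, the translationally controlled gene Tpt1 and the poly(A)-binding protein gene Pabpc1, whose mRNAs also carry TOP runs, rose by 1.56, 1.40 and 1.24. Of 18 initiation genes 5 rose, where 19.6% of all genes did, and of 2 tested mitochondrial ribosomal proteins none passed, at a median of 0.16.

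Mural-like and endothelial-like cells lay at the other end. In mural-like cells 66 of 74 members fell and none rose, where 13.9% of all genes fell, and the median member difference was -0.86. Among the largest falls were Rpl32, at -1.29 (SE 0.212, limma adjusted p = 0.000476), Rpl23, another 60S protein, at -1.27, Rplp0, the base of the stalk, at -1.21, and Rpl10, the 60S protein that joins last, at -1.20. Rplp0 was at 1.23 and 1.10 in mural-like cells and at 2.02 to 7.14 in the other tested classes, with no overlap. In endothelial-like cells 46 of 74 members fell, where 9.21% of all genes fell and 23.4% passed in either direction. The largest were Rps9 at -0.85, Rps20 at -0.84, Rps28 at -0.82, Rpl32 at -0.82 and Rplp2, a stalk protein that recruits elongation factors, at -0.81. All 74 members were lower in both samples in these 2 classes.

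These falls moved with the clusters that made up each class. In 1 mural-like cluster of 55 cells and 1 endothelial-like cluster of 94 cells, no own marker was among the 10 leading genes. Gm rows of satellite type filled the list of the mural-like cluster, and 3 of them stood in that of the endothelial-like cluster, which Morc1 led. They held 9.24% and 5.14% of UMIs in satellite rows, and their ribosomal protein share was 0.426% and 0.428%. The mural-like cluster of 44 cells and the endothelial-like cluster of 177 cells that were led by own markers had 0.770% and 0.697% in satellite rows and a share of 1.38% and 1.5%. In tissue samples 1 and 2 that mural-like cluster had a share of 1.55% and 1.21%, and the endothelial-like one 1.42% and 1.59%. Their order thus differed between the samples. With own-marker clusters only, an alternative chosen after seeing the data, 35 members fell in mural-like and 11 in endothelial-like cells, and 72 still rose in immune-like cells. In cells of 1000 to 4000 UMIs, 2 members fell in mural-like, none passed in endothelial-like and 48 rose in immune-like cells. The shares of all genes that passed in these alternatives are not given here, so a loss of calls particular to the family is not shown. Immune-like cells had median depths of 6307 and 5850 UMIs.

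TFC-like cells of the tissue differed by single genes. Of 74 members 7 rose and none fell, where 9.63% of all genes rose and 30.9% fell. Without adjustment 10 members had p under 0.05, against 49.2% of all genes, and in 28 members the sign differed between the 2 samples. Rps26, a 40S protein near the mRNA exit, was at 3.71 and 3.67, against 0.771 to 1.37 in endothelial-like and mural-like cells and 4.47 and 6.04 in immune-like cells, a difference of 0.66 (SE 0.164, limma adjusted p = 0.00635). Rpl10 and Rpl7, a 60S protein, rose by 0.64 each and Rpl4 by 0.47, and Rpl41 and Rplp0 also passed. Relative to the family, Rps26, Rpl10 and Rpl7 stayed higher, at 0.47 to 0.58, and Rpl17, Rpl18 and Rpl29 were lower, at -0.43, -0.45 and -0.59. The 7 calls were lost with own-marker clusters only, where Rpl17, Rpl18 and Rpl29 fell and none rose, and in cells of 1000 to 4000 UMIs none passed. Of the elongation list Eef2 and Eif5a rose, by 0.76 and 0.52.

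**Figure D2:**
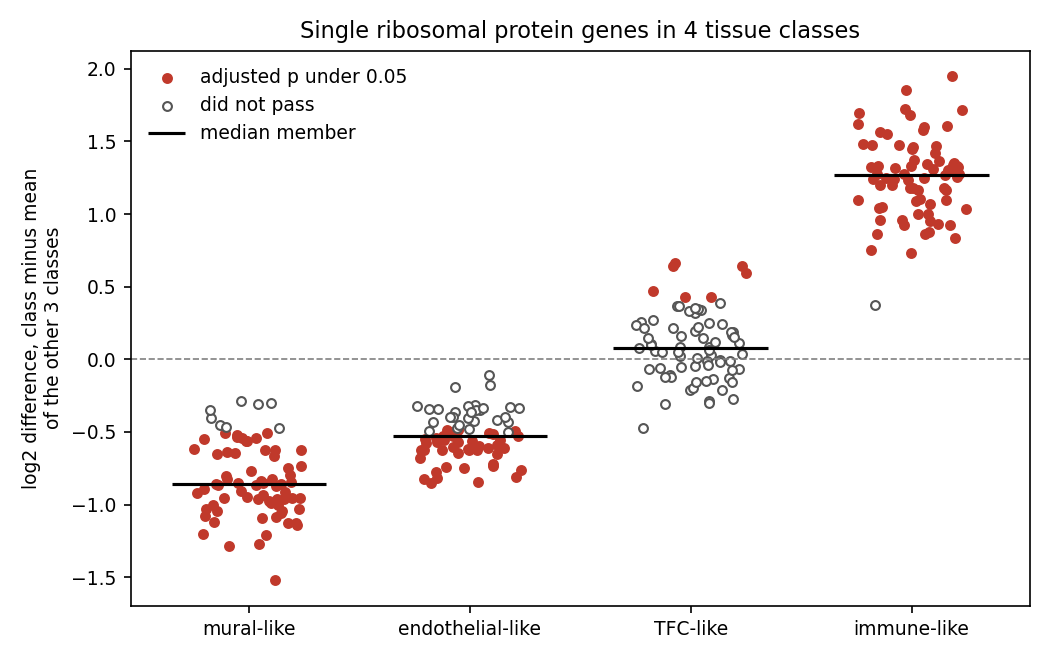
Log2 difference of each of the 74 tested members between a tissue class and the mean of the other 3 classes (vertical axis). Points are genes, filled where the limma adjusted p was under 0.05, and lines mark the median member, at -0.86 in mural-like and 1.27 in immune-like cells.

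The second question was how TFCs in culture compare with TFCs of the gland. The TFCO share was 4.4%, 3.10% and 3.90% in late samples and 2.49% and 2.11% in early samples, against 1.85% and 1.99% in tissue TFC-like cells. In means over cells, all 5 TFCO samples lay above both tissue samples. The mean was 3.20% ± 0.951 (SD, n = 5) against 1.92% ± 0.101 (SD, n = 2), a difference of 1.28 points (exact permutation p = 0.143, two-sided, where 0.0476 is the smallest that 21 splits allow). Within tissue TFC-like cells the share rose with depth (Spearman 0.50 and 0.42 across 57 and 61 cells), and in early sample 2 it did too (0.60, 313 cells). In cells of 1000 to 4000 UMIs the difference was 1.18 points. Tg held 14.1% and 9.65% of the UMIs of tissue TFC-like cells, against 0.685% to 1.54% in TFCOs. Without Tg, mitochondrial, haemoglobin and ribosomal RNA rows in the total, the difference was 0.962 points (exact permutation p = 0.286, two-sided). With UMIs summed over cells the difference was 0.700 points. Tissue sample 2, at 3.06%, then lay above both early samples, at 2.55% and 2.59%. In that sum 1 tissue cell of 268847 UMIs held 46.9% of the UMIs of its class, although the share without it was 2.93% against 3.06% with it. Culture, medium and release from the matrix go with the TFCO group and cannot be told apart.

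The single genes were tested next. Of 76 members tested, 9 rose in TFCOs and none fell, where 25.7% of all genes rose and 7.52% fell. The share of members that rose was below that of all genes. Of these 76 members 63 were positive, at a median of 0.39 against 0.22 for all genes. All TFCO samples lay above both tissue samples in 26 of 76 members, where 41.5% of all genes did, and below both in none, where 11.6% of all genes did.

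Rpl4, a 60S protein that lines the peptide exit tunnel, moved most. Its level was 7.10 and 7.25 in tissue TFC-like cells, 28.1, 22.5 and 29.1 in late TFCOs and 24.5 and 26.2 in early TFCOs. The groups did not overlap, and on the log2 scale TFCOs were 1.72 higher (SE 0.355, adjusted p = 0.00443 by limma). Its last 400 transcript bases shared no exact 50-base stretch with an annotated transcript of another gene. Near copies with mismatches were not looked for. Rpl5, which forms the 5S particle with Rpl11 and binds Mdm2, was at 3.85 and 3.60 in tissue, 14, 9.52 and 13.6 in late and 8.47 and 8.44 in early samples, a rise of 1.24 (SE 0.319, adjusted p = 0.0121). Rpl17 rose by 1.13 and Rpl15, a 60S protein, by 0.92. Rps20, a protein of the 40S head, rose by 0.89, Rpl19 by 0.81, Rps13 by 0.80, Rps6, the substrate of S6 kinase, by 0.62, and the p53-responsive paralogue Rps27l by 0.53. Rps20 was at 3.97 and 5.37 in tissue and at 7.23 to 14.5 in TFCOs.

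At the low end stood Rpl10, at -0.49 (SE 0.254, adjusted p = 0.154), and Rpl26, a 60S protein near the exit tunnel, at -0.48 (SE 0.255, adjusted p = 0.164), which did not pass. Rpl10 was at 3.55 and 3.81 in tissue and 1.66 to 3.77 in TFCOs, and Rpl26 at 2.96 and 4.24 against 1.49 to 3.89. Rpl10 shared 92.3% of the 50-base stretches in its last 400 bases with other genes and Rpl26 59.96%, so their UMIs are uncertain. Of 82 members with a transcript, 36 shared more than 50% and 9 shared none, and the median was 45.6%. Over 76 members the TFCO difference had a Spearman correlation of -0.14 with the percent shared.

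The calls depended on the settings and on single samples. With UMIs summed over cells none of the 76 members passed, with equal sample weights 28 did, and with one sample left out 4 to 19 did. Without late replicate 2 there were 19 calls, without tissue replicate 2 there were 14, and without early replicate 1 only Rpl4, Rpl5, Rpl15 and Rpl17 passed. These 4 genes also passed in each of the other fits that left out one sample. Where a tissue sample was left out, the remaining one was assumed to vary like the other groups. Rpl5, Rpl15 and Rpl17 shared 50%, 54.1% and 68.8% of their 50-base stretches with other genes.

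**Figure D3:**
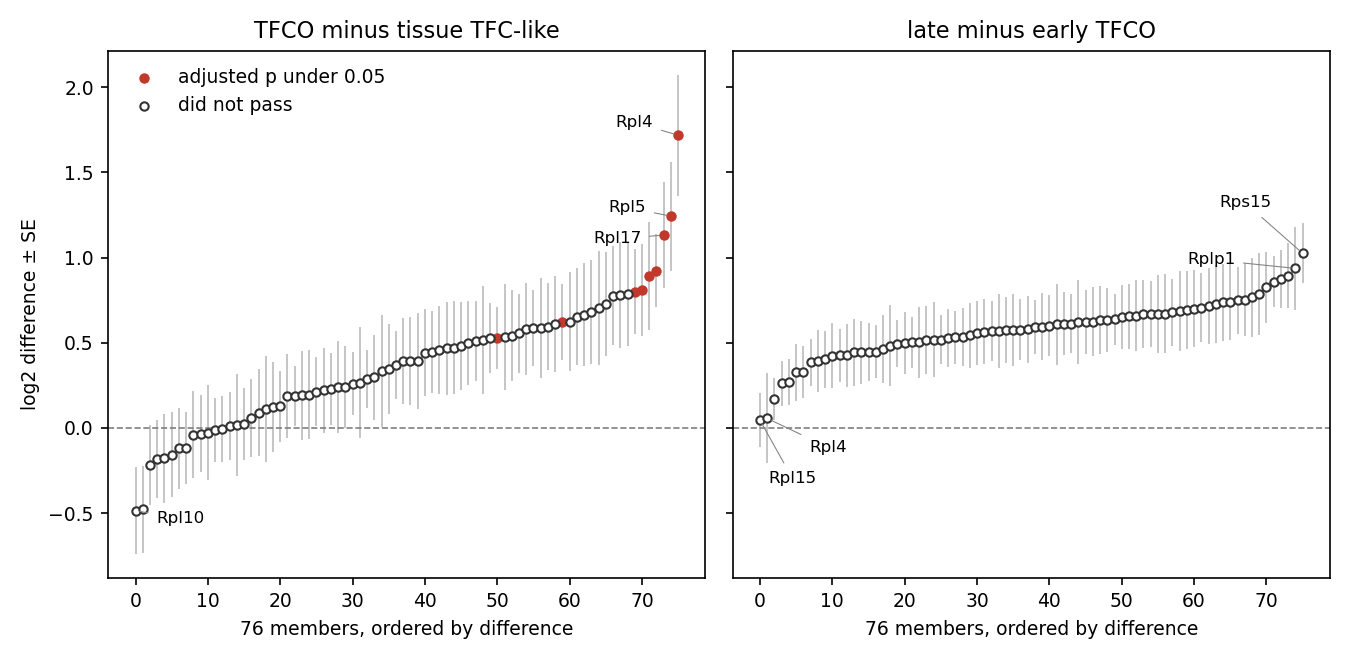
Log2 differences ± SE of the 76 tested members, ordered by size in each panel, for TFCOs minus tissue TFC-like cells (left) and late minus early TFCOs (right). Filled points passed an adjusted p of 0.05; Rpl4 leads the left panel at 1.72, and every point of the right panel is above 0.

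Within the family the make-up shifted toward Rpl4. It held 3.84% and 3.64% of the summed ribosomal protein level in tissue TFC-like cells, 6.39%, 7.25% and 7.47% in late TFCOs, and 9.85% and 12.4% in early TFCOs, and ranked first in all 7 samples. In immune-like, mural-like and endothelial-like cells it held 2.63% to 3.16%. Scaled to the summed family level, which includes Rpl4 itself, the Rpl4 difference between TFCOs and tissue was 1.17 (limma adjusted p = 0.0581). Late minus early it was -0.63 (limma adjusted p = 0.1002), and neither passed. The members lower in TFCOs relative to the family were Rpl10, at -0.99 (adjusted p = 0.0243), Rpl26, at -0.98 (adjusted p = 0.0163), and Rps15, a 40S protein, at -0.71 (adjusted p = 0.0489). Rpl10 held 1.92% and 1.91% of the family in tissue and 0.581% to 0.967% in TFCOs. The large to small subunit ratio was 1.25 and 1.26 in tissue and 1.35, 1.42 and 1.46 in late samples. In early samples it was 1.51 and 1.56, with no overlap between the groups. Rpl4 counts in this ratio as a large subunit member, and its part of the family followed the same order. The ratio without Rpl4 was not computed, so a shift between whole subunits is not shown. The stalk proteins held 5.63% and 5.35% of the family in tissue and 3.49% to 4.58% in TFCOs.

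**Figure D4:**
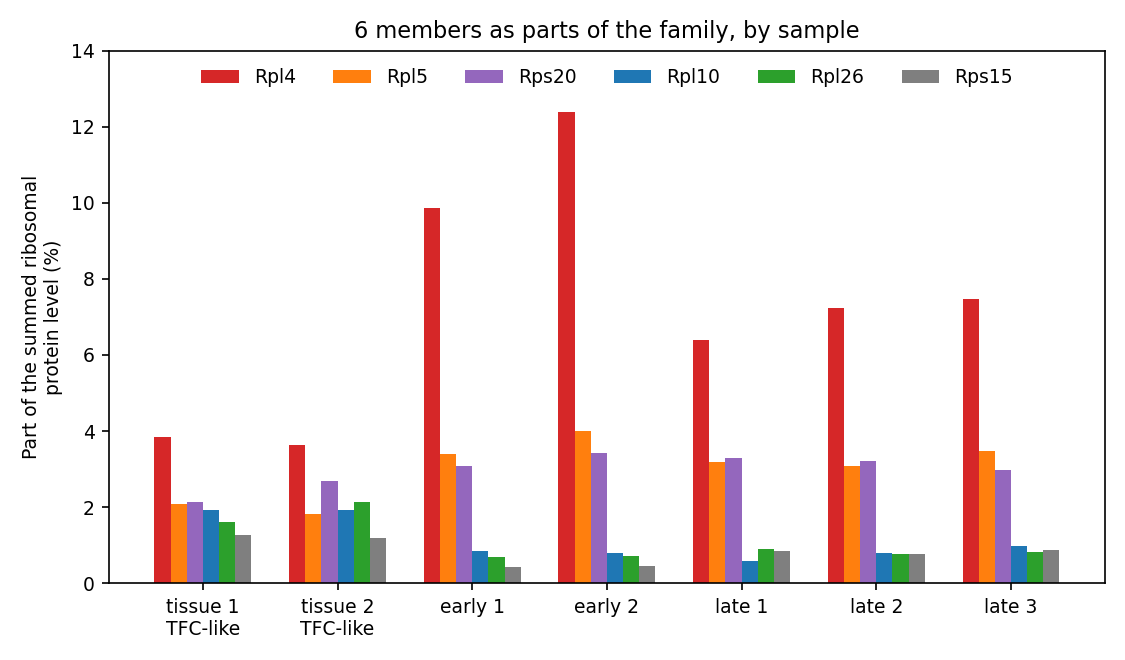
Percent of the summed ribosomal protein level held by 6 members in each TFC sample (vertical axis). Rpl4 holds 3.64% and 3.84% in tissue and up to 12.4% in early TFCOs, while Rpl10 and Rpl26 fall below 1% of the family in every TFCO sample.

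Other genes of the translation machinery were read beside the members. In TFCOs Rack1 rose by 1.13, with levels of 1.87 and 2.31 in tissue and 3.72 to 9.72 in TFCOs, while Fau was at -0.089 and did not pass. Read against the 25.7% of all genes that rose, 2 of the 7 elongation genes rose, Tpt1 by 1.48 and Eef1b2 by 1.30. Of 27 initiation genes 11 rose, led by Eif4g2 at 1.45 and Pabpc1 at 1.34. Of 5 tested ribosome biogenesis genes 3 rose, among them Npm1, a nucleolar chaperone, by 1.38 and Ddx21, a nucleolar helicase, by 0.94. Of 4 RNA polymerase I genes Taf1c and Polr1d rose, by 0.85 and 0.57, and Polr1b fell by 0.91. Of 6 genes of TOP mRNA control only the mTOR activator Rheb passed, at 0.43, and of 6 mitochondrial ribosomal proteins none passed, at a median of 0.17.

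The third question was whether passage changed the genes. Late TFCOs had a mean share of 3.80% ± 0.653 (SD, n = 3) and early TFCOs 2.30% ± 0.266 (SD, n = 2), a ratio of 1.65. The difference of 1.5 points had an exact permutation p of 0.200, two-sided, and 0.1 is the smallest that 10 splits allow. In cells of 1000 to 4000 UMIs it was 1.89 points.

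All 76 tested members had a positive late minus early difference, at a median of 0.59, against 0.0033 for all genes. None passed limma's adjusted p of 0.05, where 0.0231% of all genes passed, and the lowest adjusted p was 0.105. Without adjustment 67 members had p under 0.05, against 20.6% of all genes. Both early samples lay below all 3 late samples in 73 of 76 members, where 17.6% of all genes did, and above all 3 in none, where 25% of all genes did. The 76 differences rest on the same 5 samples and are not independent of each other.

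Rps15, which is needed for export of the 40S subunit, had the largest difference. Its level was 3.75, 2.34 and 3.41 in late samples and 1.08 and 0.969 in early samples, without overlap, and the difference was 1.03 (SE 0.175, adjusted p = 0.105). Rplp1, a stalk protein, was at 9.71, 4.93 and 7.71 against 3.36 and 3.21, a difference of 0.94 (adjusted p = 0.148). Rpl38, a 60S protein linked to Hox mRNA translation, differed by 0.89, Rpsa, a 40S protein also known as the laminin receptor, by 0.88, and Rpl28, a 60S protein, by 0.86. Rpl28 was at 1.48, 1.17 and 1.77 in late and 0.226 and 0.503 in early samples. At the other end Rpl15 was at 0.045, Rpl4 at 0.056, Rpl35 at 0.17, and the paralogues Rpl36al and Rps27l at 0.26 and 0.27. Rpl4, Rpl15 and Rpl35 overlapped between late and early, and Rpl4 was lowest in late sample 2, at 22.5. Of the other translation genes none passed between late and early, and all 7 elongation genes were positive at a median of 0.46, with Rack1 at 0.75 and Fau at 0.41. Relative to the family Rps15, at 0.56 (adjusted p = 0.0240), and Rpl28, at 0.53 (adjusted p = 0.0269), passed.

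Late sample 2 and early sample 1 were the deepest, at 12381 and 11059 UMIs per cell. With a term for the likeness of these 2 samples, which sets them apart from the other 3, 44 members passed, all higher in late TFCOs. The labels give no such pair, so the term was drawn from these data. Late sample 2 had the lowest share of the late samples, at 3.10%, and early sample 1 the higher early one, at 2.49%. The term takes this spread within the stages out of the fit, so the 44 calls are not separate support. Without early replicate 1, 13 members passed, and without late replicate 2 only Rps15 did. In the first of these fits the lone early sample was assumed to vary like the other groups. The shares of all genes that passed with the term or in these fits are not given here. The counts are therefore not shown to set the family apart.

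The stage difference could be set beside the cell cycle. Cells with a UMI of Mki67 or Top2a were called cycling, 50, 146 and 61 in the late samples and 106 and 63 in the early samples, between 16.3% and 45.1%. In each sample they were deeper than noncycling cells, by the most in early sample 1, at 17646 against 7650 UMIs. The share of ribosomal protein UMIs was 4.25% against 4.43% in late sample 1, 2.95% against 3.21% in late sample 2, 3.98% against 3.88% in late sample 3, 2.54% against 2.45% in early sample 1 and 2.24% against 2.08% in early sample 2. The mean difference was -0.0171 points ± 0.185 (SD, n = 5, exact sign-flip permutation p = 0.875, two-sided, smallest possible 0.0625). The sign was negative in 2 samples and positive in 3. The mean difference was -0.152 points in cells of 1000 to 4000 UMIs and -0.171 points with cycling called on cells thinned to 1000 UMIs (exact permutation p = 0.625 and 0.25).

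**Figure D5:**
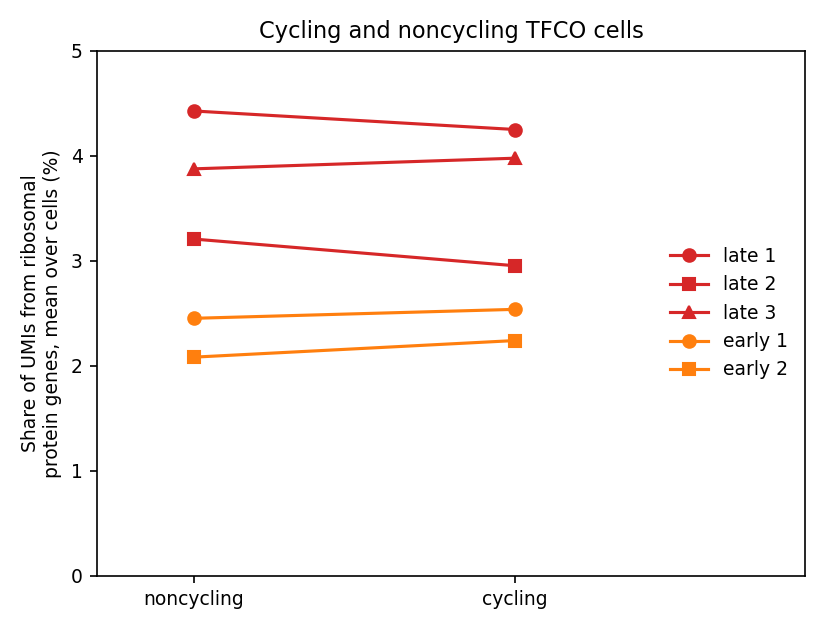
Share of UMIs from ribosomal protein genes (vertical axis, percent) in noncycling and cycling cells of the 5 TFCO samples, joined by a line per sample. The lines are nearly flat, and the samples differ more from each other than the 2 kinds of cell within a sample, which differ by -0.255 to 0.158 points.

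Of 78 members tested none passed, where 1.54% of all genes did and 0.278% fell, and 4 had an unadjusted p under 0.05, against 12.5% of all genes. The differences were positive in 39 members and negative in 39, from -0.14 to 0.19. Among the largest were Rps2 and Rpl12, at 0.19 each, Rps27l at 0.17 and Rplp0 at 0.13. The lowest were Rpl10 at -0.14, Rps28 and Rps14 at -0.13 each, and Rpl37 and Rps21 at -0.11 each. Rps2 was positive in 4 of 5 samples and Rpl10 negative in 5 of 5, at -0.10 to -0.23, and neither passed. The 4 other cycling genes that could be tested all rose, Cenpf by 0.87 and Cenpa by 0.74 among them, and of 13 mitochondrial ribosomal proteins Mrps28 rose, by 0.37. The difference between late and early TFCOs in the cycling difference was not past the threshold in any of 78 members, where 0.0214% of all genes passed, and 64 were negative, led by Rpl27 and Rps2 at -0.35 each. Without adjustment 5 had p under 0.05, against 6.21% of all genes. With every deposited cell 2 members passed.

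The other 10 members were too low to test between TFCOs and tissue or between late and early, and 8 of them also for cycling. Rpl10l and Rpl39l, paralogues known from testis, held 16 and 7 UMIs over all deposited cells, and Rpl3l, known from muscle, held 56. Rpl6l, Rps12l1 and Rps3a2 held 17, 6 and 39. Rps10, a core 40S protein, held 8, in a locus that overlaps the gene RPS10-NUDT3 and with 49.0% of its 50-base stretches shared, so this count does not give its expression. Rpl13a and Rpl7l1 held 1247 and 969, and were tested for cycling, at 0.055 and 0.059, where neither passed. Rpl13a shared 46.25% of its 50-base stretches, with the overlapping gene Gm45713 in the first place, so its level is uncertain too. Rps4l, named for its likeness to the X-linked 40S gene Rps4x, differed between libraries. In the kept cells it had 59 UMIs in late sample 3 (16.1% of cells), 29 in early sample 2 and 19 in late sample 1. It had 3 in late sample 2 and 0 in early sample 1, the samples with the highest median depths. With 3 counts as the limit, 0 of 235 cells allows a share of up to 1.28% of cells with a UMI, by counting error only. Rps4x itself was at 3.09 to 5.93 in the 5 TFCO samples. Rps27 shared 50.8% of its 50-base stretches, with Rps27rt in the first place, a row outside the rule, so the levels of both are uncertain. Rps27 was at 1.46 to 3.76 in TFCOs and Rps27rt at 2.28 to 6.43.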

How the data were processed

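Single-cell mRNA was measured by SORT-seq in 7 samples of mouse thyroid tissue and TFCOs. Per the submitters' processing notes, reads were handled with Trim Galore 0.4.3, STAR 2.5.3a and Seurat against GRCm38 (mm10). The table deposited by the authors holds the natural log of 1 plus UMIs per 10000 of a cell. Dividing each cell's linear values by its smallest gave whole UMIs for 100% of values within 0.01. No column of the table was left unmapped.

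Cells of at least 1000 UMIs were kept. Median depth per sample was 3368 to 12381 UMIs, and sampling of these UMIs limits the precision of low genes. Tissue cells were clustered with scanpy 1.11.5 and igraph 0.11.9 (Python 3.11.15, 2000 variable genes, 30 components, 15 neighbours, Leiden resolution 1) without ribosomal protein genes, and classes were named from marker lists. No doublet caller was run. Mean UMIs per 10000 of each sample were tested as log2(level + 1) with limma 3.58.1 (R 4.3.3, trended, Benjamini-Hochberg over all genes tested, threshold 0.05), for genes with a mean level of at least 0.5. Fold changes of low genes are understated on this scale. Estimated weights were 0.505 for tissue and 1.31 for TFCO samples. Shares were compared by two-sided exact permutation tests.

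The fits were also run on simulated data with independent noise for each gene and no sample effects. Of 200 genes changed by 1 on the log2 scale, 173 were recovered for TFCOs against tissue (4322 genes). For cycling 200 were recovered (4683 genes), and for the classes 151 (4518 genes). Unchanged genes that passed numbered 6, 8 and 4. Genes that move together were not simulated, so these counts do not cover calls on the family. Named are the 5 members with the largest rise and fall per comparison, with paralogues and special members set by list, and any further member beside them was chosen after its values were seen. Some genes that this rule names are not reported here. Transcript ends came from GENCODE vM21. The members and the lists (partners with other names, elongation, initiation, ribosome biogenesis, RNA polymerase I, TOP mRNA control, mitochondrial ribosomal proteins, cycling check) were chosen with earlier results of these data known. Alternatives covered pseudocount, gene filter, depth window, summed UMIs, denominators, cluster resolution, weights and left-out samples.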

Additional observations from a re-analysis of the deposited data

Results flagged for a closer look

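Rows named as ribosomal protein pseudogenes, which are outside the comparisons of the report, held UMIs. Their share was 0.660% as the mean of the 5 TFCO samples, with 0.443% to 0.891% in single samples, against 0.293% and 0.284% in tissue TFC-like cells. Of 255 such rows 26 could be tested between TFCOs and tissue. Of these 26, 12 rose and none fell, where 25.7% of all genes rose and 7.52% fell. In immune-like cells all 14 tested rows rose, where 19.6% of all genes did.

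Among these rows Rpsa-ps10 was the 1 gene of all tested that passed between late and early TFCOs, at 2.20 on the log2 scale (SE 0.147, limma adjusted p = 7.63e-06). Its level was 6.27, 5.72 and 7.24 in late samples, 0.528 and 0.678 in early samples, and 0.0357 and 0.00339 in tissue. Rpsa, the parent gene, shared 40.7% of the 50-base stretches in its last 400 bases with other genes, so UMIs of both rows are uncertain. With the pseudogene rows added to the family, the share difference between TFCOs and tissue was 1.65 points.

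The cycling minus noncycling difference of Rpl10 was -0.23 in late sample 3 and -0.10 to -0.13 in the other 4 TFCO samples, which set that sample apart from the others. Of 11 groups of values looked at in this way, chance sets about 1 in 20 apart.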

How the results depend on the processing

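No paired analysis was possible because the replicate numbers only name samples in the order of their accessions. Cycling and noncycling cells were compared within samples.

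The 2 tissue samples, with 57 and 61 TFC-like cells at median depths of 2053 and 1847 UMIs, limited the precision of the comparisons with TFCOs. In the class comparisons, leaving out a tissue sample gave values with no test, since 1 sample has no residual spread. The use of own-marker clusters only was chosen after seeing the data. The cause was not tested for any change given here, beyond what an alternative leaves out by construction.

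Of the shares, the TFC-like difference from the other classes was 0.513 points with summed UMIs, 0.361 without Tg, mitochondrial, haemoglobin and ribosomal RNA rows in the denominator, and -0.428 with own-marker clusters, and its sign differed between the tissue samples, at -0.287 without replicate 1 and 0.0337 without replicate 2. The mural-like difference, -1.55, became -2.13 with summed UMIs, -1.13 in cells of 1000 to 4000 UMIs and -1.15 with own-marker clusters. The cycling difference was 0.317 points with every deposited cell, -0.152 in cells of 1000 to 4000 UMIs, -0.171 with cycling called on thinned cells and -0.0610 to 0.0422 with one sample left out.

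Between TFCOs and tissue, 9 calls became 2 with every gene kept, 0 with summed UMIs, 4 after centring, 3 without Tg and the other rows in the denominator, 28 with equal weights and 4 to 19 with one sample left out. Scaled to the family, 3 members were lower. Between late and early, 0 calls became 2 scaled to the family, 44 with the term for late sample 2 and early sample 1, and 0 to 13 with one sample left out. For cycling, 2 passed with every deposited cell. TFC-like calls, 7 in the report, were 0 in cells of 1000 to 4000 UMIs, 0 with every gene, 20 with summed UMIs, 15 after centring, 20 with the reduced denominator, and 3 lower with own-marker clusters. Endothelial-like calls, 46, were 0, 2 and 9 under the first 3 of these, 0 scaled to the family and 11 with own-marker clusters. Mural-like calls, 66, were 2 in the depth window, 29 with every gene, 9 scaled to the family (5 higher, 4 lower) and 35 with own-marker clusters. Immune-like calls, 73, were 48 in the depth window and 7 scaled to the family (4 higher, 3 lower). For these alternatives the shares of all genes that passed are not given here.

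Some single genes changed sign. Late minus early, Rpl15 was -0.071 with summed UMIs, -0.43 scaled to the family, -0.037 with every deposited cell and -0.20 to 0.29 with one sample left out, and Rpl4 was -0.63 scaled to the family and -0.012 to 0.17 with one sample left out. Scaled to the family, Rpl35, Rpl36al and Rps27l were at -0.099, -0.039 and -0.12. For cycling in the depth window, Rps2 was at -0.27, Rps27l at -0.043, Rplp0 at -0.077 and Rpl37 at 0.017. With cycling called on cells thinned to 1000 UMIs, Rplp0 was at -0.11 and Rps21 at 0.041. With every deposited cell, Rpl10 was at 0.085, Rps28 at 0.072, Rps14 at 0.037, Rpl37 at 0.016 and Rps21 at 0.046. In immune-like cells, scaled to the family, Rpl22l1 was at -0.23 and Rpl22 at -0.043, and Rpl22l1 was -0.10 and 0.85 with one tissue sample left out. Of the other single-gene values, 629 kept direction and side of the threshold, and 99 lost and 18 gained a call.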

Other observations

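Rpl7l1, a relative of Rpl7 with a role in ribosome assembly, was too low for a test against tissue or between late and early. It had a UMI in 8.77% and 9.84% of tissue TFC-like cells, in 25.4%, 44.7% and 36.0% of late TFCO cells and in 36.2% and 19.8% of early TFCO cells, at the differing depths given in the report. Members were spread over many chromosomes, with 15 on chromosome 7 and 8 on chromosome 17. The share fell with depth within mural-like cells, with Spearman correlations of -0.41 and -0.49 across 54 and 45 cells. This class joined a cluster of median depth 5233 UMIs and share 0.426% with one of 3728.5 UMIs and 1.38%. A relation with depth inside either cluster was not tested. TFCO cells of different plates in wells of the same barcode had a correlation of 0.0854 in their ribosomal protein share over 2238 pairs.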
